A study of Mus musculus with 8 samples.

Results

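Collagens, laminins and integrins are the genes of the extracellular matrix and of the receptors with which cells hold on to it. Collagen chains (Col genes) form fibrils, sheets and transmembrane proteins, and laminin alpha, beta and gamma chains (Lama, Lamb and Lamc genes) assemble as trimers into basement membranes. Integrin alpha and beta subunits (Itga and Itgb genes) pair at the cell surface and bind these proteins. Laminin and its integrin receptors are known for their part in oligodendrocyte survival and myelination, and fibrillar collagens are made mainly by fibroblasts of the meninges and of the vessel wall. Members were chosen by gene symbol, with earlier results of these data known. They numbered 81 of the 20871 genes listed in the RNA or DNA tables, with 44 collagen, 11 laminin and 26 integrin genes. A further 6 symbols with these prefixes did not match the form of symbol required and were left out (Col4a3bp, Itgb1bp1, Itgb1bp2, Itgb2l, Itgb3bp and Itgbl1).

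The study compared adult oligodendrocyte progenitor cells (aOPC), the dividing cells that generate oligodendrocytes, with adult oligodendrocytes (aOL), the cells that form myelin. Both were sorted by fluorescence from brains of C57BL/6 mice at postnatal day 60. The aOPC came from Pdgfra-H2BEGFP mice, in which the Pdgfra locus drives a nuclear EGFP, and the aOL from Plp-EGFP mice, in which EGFP marks oligodendrocytes, so population and reporter line cannot be told apart. Pdgfra is also active in fibroblasts, and per the study's methods both preparations passed a Percoll gradient meant to take away meninges and vessels before sorting. RNA and DNA were taken from the same cell pellet, and each population had 2 RNA-seq libraries and 2 libraries of reduced representation hydroxymethylation profiling (RRHP) in the files used, numbered replicates 2 and 3; replicate 1 was not analysed here. Sources name no animal for each library, so p-values measure the spread between these libraries only. The tissue label of the aOL RRHP libraries names the Pdgfra reporter, and the titles of the aOL RNA libraries call the cells pre-myelinating where the protocol calls them myelinating; the groups follow the titles.

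RNA levels are log2 normalised values without correction for gene length, so single genes are compared below between libraries and not with each other. RRHP counts the reads at CCGG sites that 5-hydroxymethylcytosine (5hmC) protects from the enzyme MspI, and its libraries held between 7113237 and 27057859 counts. The RNA labels were only partly borne out by marker genes. Of 12 OPC markers, Neu4 (9.90 and 7.07 in aOPC, 3.03 and 3.61 in aOL) and Vcan (8.87 and 5.27, against 2.49 and 3.24) had an unadjusted p under 0.05. Pdgfra was 7.54 and 5.47 in aOPC against 4.98 and 1.63 in aOL. Of 12 oligodendrocyte markers, 1 was higher and 4 were lower in aOL at that threshold, and Mag, a myelin glycoprotein gene, was 18.50 and 18.27 in aOPC against 18.39 and 18.39 in aOL. The libraries labelled aOPC therefore carried oligodendrocyte transcripts at about the level of those labelled aOL.

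The sequences below are the CCGG sites, in capitals, on which the 5hmC results for members turn. Each is shown with 20 bases on either side, on the plus strand of GRCm38. They are given because RRHP reads come only from CCGG. A site gives no reads where 5hmC is absent and also where the CCGG itself is absent. In the Col6a6 sequence a further CCGG, left in lower case, directly follows the one in capitals.
Col11a1 intron, chr3:114066296-114066339: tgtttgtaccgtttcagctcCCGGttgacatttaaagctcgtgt
Col11a1 exon, chr3:114066398-114066441: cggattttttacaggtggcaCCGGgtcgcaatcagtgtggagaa
Col11a1 intron, chr3:114077783-114077826: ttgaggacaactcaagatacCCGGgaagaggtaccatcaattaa
Col11a2 exon, chr17:34058543-34058586: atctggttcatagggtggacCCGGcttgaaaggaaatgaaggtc
Col25a1 intron, chr3:130234198-130234241: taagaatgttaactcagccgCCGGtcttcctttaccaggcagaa
Col6a6 intron, chr9:105764596-105764639: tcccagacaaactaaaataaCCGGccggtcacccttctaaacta
Lama1 intron, chr17:67786406-67786449: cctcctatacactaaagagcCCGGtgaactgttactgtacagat

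In RNA, 43 members were listed (25 collagen, 4 laminin and 14 integrin genes) and 40 reached a log2 value of 5 in 2 or more libraries and were tested. The 3 that did not were the basement membrane collagen Col18a1 (1.63 and 3.13 in aOPC, 3.80 and 7.54 in aOL), the transmembrane collagen Col25a1 (4.89 and 5.18, against 2.49 and 1.63) and the collagen receptor subunit Itga11 (3.75 and 0.32, against 0.32 and 0.32). None of the 40 was called by limma (unadjusted p under 0.01 and Benjamini-Hochberg adjusted p under 0.05), where 0.0808% of all 11133 genes tested were. At an unadjusted p under 0.05, 8 members were higher in aOL, against 12.1% of all genes, and 10 were lower, against 12%. These are 20% and 25.0% of the 40. The median member difference was 0.24 (log2, aOL minus aOPC) beside 0.02 for all genes. The aOL libraries both lay above both aOPC libraries for 13 members and below for 12, which is close to the shares of all genes, 31.9% and 29.9%. Without aOPC replicate 2, without aOPC replicate 3, and without aOL replicate 2 or 3, limma called 16, 14, 5 and 5 members (43.2%, 36.8%, 12.8% and 13.2% of those tested), with the lone library of a population assumed to vary like the other 2. The same fits called 36.3%, 21.3%, 0.905% and 0.896% of all genes. Only Col6a1 and Col8a2 were among the calls in all 4 of these fits. Col8a1, Itga7, Itgb7 and Lama4 were tested in only 2 of the 4 and so could not be.

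**Figure D1:**
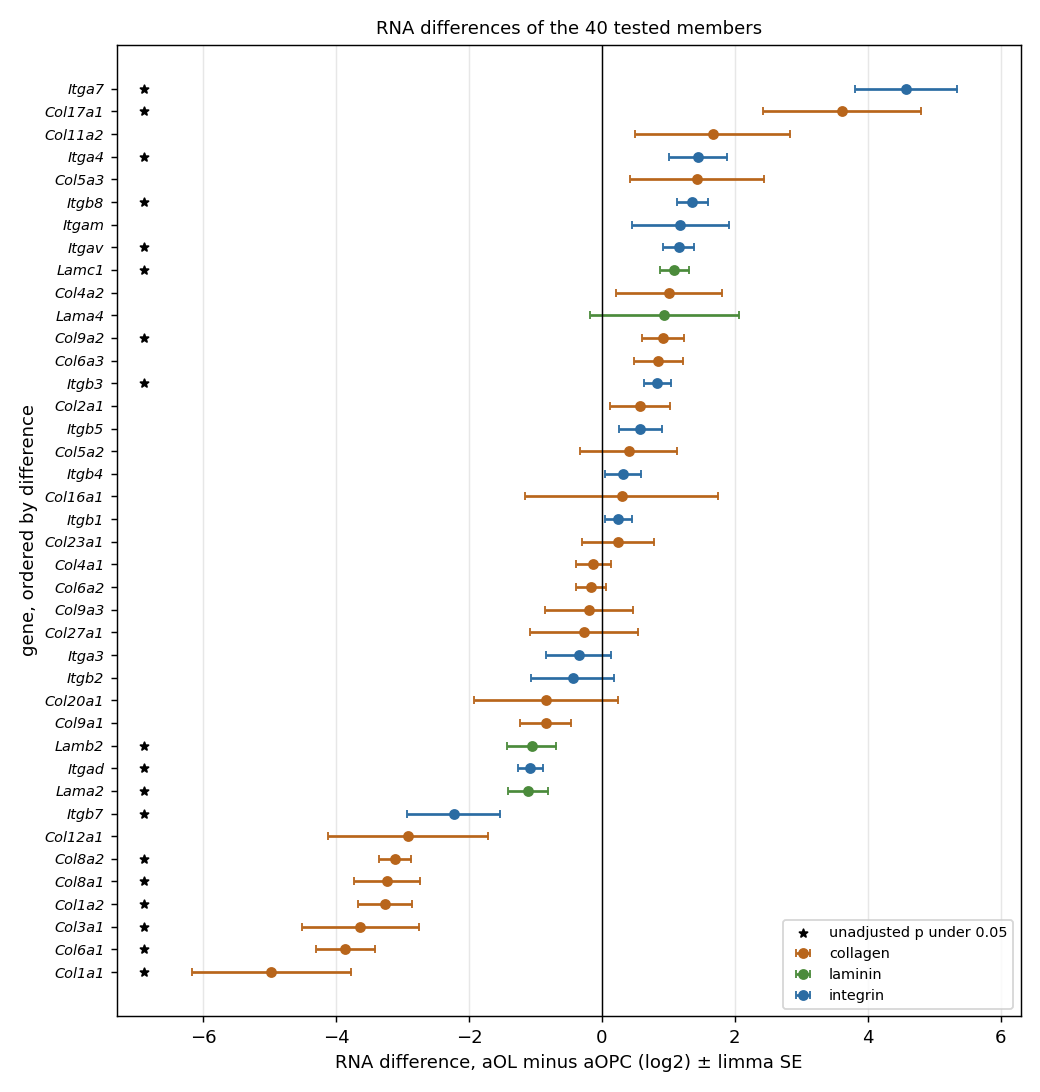
Difference in RNA level between aOL and aOPC (horizontal axis, log2, means of 2 libraries each, bars are limma standard errors) for the 40 tested members, coloured by family, with a star where the unadjusted p was under 0.05. The 6 lowest members are collagens, from Col1a1 at -4.98 to Col8a2 at -3.11, and the highest is the integrin subunit Itga7 at 4.58.

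The largest differences below 0 were those of 6 collagens, Col1a1, Col6a1, Col3a1, Col1a2, Col8a1 and Col8a2. Col1a1 and Col1a2 encode the chains of type I collagen, the main fibre of skin, bone and meninges. Col1a1 was 9.65 and 9.34 in aOPC, against 6.21 and 2.83 in aOL, and Col1a2 was 10.06 and 9.59 against 7.03 and 6.08. Both genes were lower in each aOL library than in either aOPC library, and the aOL libraries differed between themselves far more for Col1a1 than for Col1a2. The differences were -4.98 ± 1.19 (limma SE) for Col1a1 (unadjusted p = 0.0129, adjusted p = 0.147; -3.29 without aOL replicate 3) and -3.27 ± 0.41 for Col1a2 (unadjusted p = 0.00117, adjusted p = 0.108). Col3a1, the type III chain that co-assembles with type I, was 8.06 and 8.80 in aOPC, against 5.97 and 3.61 in aOL (adjusted p = 0.147).

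Col6a1, which encodes a chain of beaded microfibrils, was 9.03 and 8.76 in aOPC, against 5.60 and 4.46 in aOL, a difference of -3.87 ± 0.45 (adjusted p = 0.102). Its partner chains had other values. Col6a2 was 9.97 and 9.86 against 9.93 and 9.58, with overlapping populations, and Col6a3 was 8.86 and 8.18 against 9.66 and 9.07, with aOL above aOPC (adjusted p = 0.250). The short-chain collagens of type VIII, known from vessel walls and Descemet's membrane, also had values well below aOPC in aOL. Col8a2 was 8.68 and 8.96 in aOPC, against 5.89 and 5.52 in aOL, and its adjusted p of 0.0611 was the lowest of all members (difference -3.11 ± 0.24). Col8a1 was 6.20 and 7.45 against 3.37 and 3.82 (-3.23 ± 0.50, adjusted p = 0.122), a difference of -1.83 with values under 5 raised to 5. Col12a1, a fibril-associated collagen, was 8.81 and 7.92 in aOPC, against 3.80 and 7.10 in aOL, with a wide gap between its aOL libraries and an unadjusted p of 0.0698.

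Markers of perivascular and meningeal fibroblasts lay lower in aOL beside these collagens. Of 16 markers of this cell type, 10 were in the table, and 8 of the 10 had an unadjusted p under 0.05, all of them lower in aOL. Pdgfra is on this list and on that of OPC markers. The matrix protein gene Mgp was 11.42 and 10.93 in aOPC, against 5.60 and 4.73 in aOL, Efemp1 (a fibulin, called with an adjusted limma p of 0.0469) 11.39 and 10.88 against 5.81 and 5.71, and Fbln1 (another fibulin) 9.20 and 9.31 against 6.60 and 6.03. The log2 of the summed level of the 10 markers was 17.05 and 17.01 in aOPC against 16.33 and 16.42 in aOL, a sum dominated by Apod, which oligodendrocytes also express. The markers Lum, Slc6a13, Slc22a6, Aldh1a2, Tbx18 and Cemip were not among the genes listed. Their part in the collagen values was not tested, and in bulk samples fewer cells of a type and less RNA per cell cannot be told apart. Of 14 endothelial markers 3 were listed, with 2 higher and none lower at an unadjusted p under 0.05, and the tight junction gene Cldn5 was 0.33 and 1.80 in aOPC against 5.92 and 7.13 in aOL. Of 14 pericyte and smooth muscle markers 5 were listed, with 1 lower and none higher in aOL at an unadjusted p under 0.05. At that threshold 1 of 12 listed microglial, 1 of 10 astrocyte and 1 of 5 tested neuronal markers were lower, and none was higher. Over all genes tested the shares were 12.1% higher and 12% lower.

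**Figure D2:**
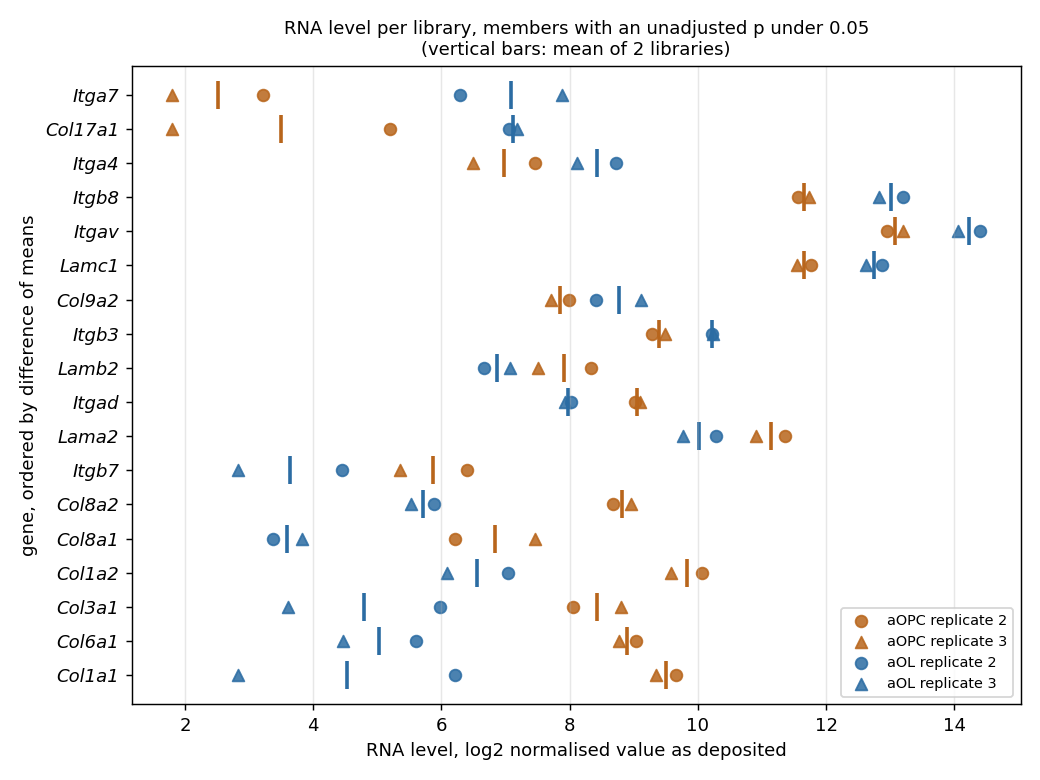
RNA level (horizontal axis, log2 normalised value) in each of the 4 libraries for the 18 members with an unadjusted p under 0.05, ordered by the difference of means; circles are replicate 2, triangles replicate 3, orange aOPC, blue aOL, and vertical bars are means. In all 18 rows the 2 populations do not overlap, with 10 members lower and 8 higher in aOL, and in Col1a1 the aOL libraries lie 3.38 apart.

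Integrin subunits were 5 of the 8 members with higher values in aOL at an unadjusted p under 0.05. The alpha-v subunit Itgav pairs with several beta subunits to bind RGD-bearing ligands such as vitronectin and the latent form of TGF-beta. It was 12.96 and 13.19 in aOPC, against 14.40 and 14.06 in aOL (difference 1.16 ± 0.23, unadjusted p = 0.00703, adjusted p = 0.133). Its partner Itgb8 was 11.57 and 11.73 against 13.20 and 12.82 (1.36 ± 0.23, adjusted p = 0.127), and its partner Itgb3 was 9.29 and 9.49 against 10.21 and 10.23 (0.83 ± 0.20, adjusted p = 0.146). The aOL libraries lay above the aOPC libraries for all 3 subunits, and the replicates of each population were at most 0.38 apart. Itgb5, another alpha-v partner, was 10.79 and 10.09 in aOPC, against 11.18 and 10.84 in aOL, again without overlap but with an unadjusted p of 0.149.

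Among the laminin receptors, Itga7, an alpha subunit best known from muscle, was 3.21 and 1.80 in aOPC, against 6.28 and 7.89 in aOL. That is a difference of 4.58 ± 0.76 (adjusted p = 0.127), with low values in both aOPC libraries. With values under 5 raised to 5 it was 2.08 ± 0.57. Itga7 passed the filter on low values only through the aOL libraries, and Col8a1 and Itgb7 only through the aOPC libraries, so these 3 of the 18 members with an unadjusted p under 0.05 were bound to differ. Itga3, which also binds laminins, was 5.99 and 7.07 against 6.56 and 5.79 and overlapped. Itgb1, the beta subunit shared by most matrix-binding integrins, was 13.65 and 13.90 against 14.07 and 13.98, and Itgb4, the beta partner of Itga6, was 14.21 and 13.63 against 14.26 and 14.22. Neither Itgb1 nor Itgb4 passed an unadjusted p of 0.05 (0.291 and 0.307), and Itga6 was not listed in RNA.

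Integrins of leukocytes had values in both directions. Itga4, a subunit that binds fibronectin and VCAM1, was 7.46 and 6.50 in aOPC, against 8.72 and 8.12 in aOL (1.45 ± 0.43, adjusted p = 0.175). Its partner Itgb7 was 6.40 and 5.35 against 4.45 and 2.83 (-2.23 ± 0.69, adjusted p = 0.180), so the values of these partners lay in opposite directions. With values under 5 raised to 5, the Itgb7 difference was -0.88 and its unadjusted p 0.0889, and without aOL replicate 3 the difference was -1.42. Itgad was 9.01 and 9.09 against 8.02 and 7.92 (-1.08 ± 0.19, adjusted p = 0.127), with replicates closer than for any other member below 0. The microglial subunits Itgam (6.65 and 4.63 against 6.96 and 6.67) and Itgb2 (5.28 and 6.62 against 6.03 and 4.97) had unadjusted p-values of 0.180 and 0.514.

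RNA listed 4 laminin chains, of which 2 lay lower and 1 higher in aOL at an unadjusted p under 0.05. The gamma chain Lamc1, present in most laminin trimers, was 11.77 and 11.54 in aOPC, against 12.86 and 12.62 in aOL (1.09 ± 0.22, unadjusted p = 0.00665, adjusted p = 0.133). The alpha chain Lama2, whose loss causes a muscular dystrophy with white matter changes, was 11.36 and 10.91 against 10.27 and 9.76 (-1.12 ± 0.30, adjusted p = 0.160). The beta chain Lamb2 was 8.33 and 7.50 against 6.66 and 7.06 (-1.05 ± 0.37, adjusted p = 0.20). Without aOPC replicate 2 the Lamb2 difference was -0.64. Populations did not overlap for any of these 3 chains. The vascular alpha chain Lama4 was 6.07 and 4.33 in aOPC, against 4.80 and 7.48 in aOL and overlapped.

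Other collagens gave smaller or unstable values. Col17a1, a transmembrane collagen of hemidesmosomes, was 5.20 and 1.80 in aOPC, against 7.06 and 7.17 in aOL (3.61 ± 1.19, adjusted p = 0.190), and Col9a2, of fibril-associated type IX, was 7.98 and 7.71 against 8.41 and 9.12 (0.92 ± 0.32, adjusted p = 0.199). With values under 5 raised to 5, the Col17a1 difference was 2.01, and without aOPC replicate 3 it was 1.91. Without aOL replicate 3 the Col9a2 difference was 0.57. The type IV basement membrane chains overlapped, with Col4a1 at 6.65 and 7.03 in aOPC, against 6.50 and 6.91 in aOL, and Col4a2 at 3.99 and 5.75 against 5.20 and 6.56. By family, 2 of 23 collagens were higher and 6 lower in aOL at an unadjusted p under 0.05 (median -0.16), 1 of 4 laminins was higher and 2 were lower (median -0.06), and 5 of 13 integrins were higher and 2 lower (median 0.58). Over all genes tested the shares were 12.1% and 12%, and the counts of a family rest on few genes.

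The aOPC libraries differed by over 1 log2 unit for 17 of 40 members (42.5%) against 17.6% of all genes, and the aOL libraries for 11 (27.5%) against 2.56%. The shares were 34.6% and 30.8% among the matrix partners described below, so this spread is not particular to the members. The median log2 value over members was 7.80 against 10.63 over all genes, and the part of level in this spread was not tested. The widest gap was in Col16a1, a fibril-associated collagen, at 11.69 in aOPC replicate 2 and 7.61 in aOPC replicate 3, with 9.56 and 10.35 in aOL. Col11a2, a chain of type XI fibrils, was 12.18 and 8.87 in aOPC, with 12.12 and 12.27 in aOL, and Col9a3, of type IX, was 12.63 and 10.80, with 11.45 and 11.59 in aOL. For Col11a2, aOPC replicate 2 lay between the aOL libraries, for Col9a3 it lay above them, and for both genes aOPC replicate 3 lay below them. Col5a3 (8.60 and 5.79), Col20a1 (8.36 and 5.35) and Col27a1 (9.86 and 7.59) had the same order of the aOPC libraries. In all, 12 members were over 1 unit higher in aOPC replicate 2 and 5 were over 1 unit lower. Of the 12 OPC markers, 8 were over 1 unit higher in aOPC replicate 2 and none was lower, among them Gpr17, a marker of committed precursors, at 12.64 against 8.20. Markers of other cell types were also over 1 unit higher in aOPC replicate 2, with 4 of 10 for astrocytes, 3 of 5 for neurons and 5 of 12 for microglia, and over 1 unit lower for 0, 0 and 1. The part of any of these cell types in the collagen values was not tested. Leaving out aOPC replicate 2 changed the median member difference to 0.61, and leaving out aOPC replicate 3 changed it to 0.03.

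**Figure D3:**
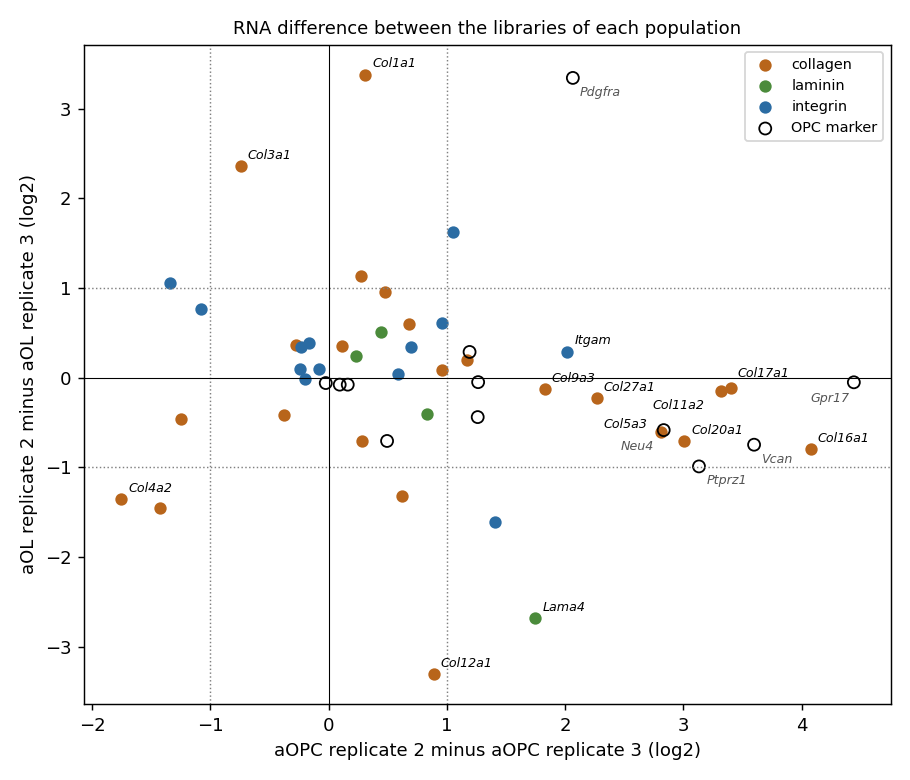
RNA difference between the aOPC libraries (horizontal axis, log2, replicate 2 minus replicate 3) against that between the aOL libraries (vertical axis, log2, same order) for the 40 tested members by family and for 12 OPC markers (open circles); dotted lines mark 1 log2 unit. Col16a1, Col17a1, Col11a2, Col20a1, Col5a3 and Col27a1 lie over 2 units to the right, as do the markers Gpr17, Vcan, Ptprz1, Neu4 and Pdgfra, with Col16a1 at 4.08.

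Genes that work with the members were counted from lists chosen by function, of which none held a called gene. Their counts at an unadjusted p under 0.05 stand against 12.1% higher and 12% lower over all genes, and those of the smaller lists rest on few genes. Of 26 listed partners in basement membrane and matrix, 3 were higher and 9 lower in aOL at an unadjusted p under 0.05 (median -0.76). The perlecan gene Hspg2, a basement membrane proteoglycan, was 7.41 and 7.63 in aOPC, against 9.40 and 9.18 in aOL, and the microfibril gene Mfap2 was 6.98 and 6.43 against 4.11 and 3.61. Of 19 tested genes for collagen processing, 2 were higher and 4 lower (median -0.12), and the collagen chaperone Serpinh1 was 9.61 and 10.43 against 8.45 and 8.69. The 31 integrin adaptors and signalling genes gave 3 higher and 4 lower (median -0.22). Talin 1 (Tln1), which links integrin tails to actin, was 13.07 and 12.62 in aOPC, against 14.03 and 13.90 in aOL. The 12 other collagen and laminin receptors gave 0 higher and 3 lower (median -0.25), with the collagen receptor Ddr2 at 7.47 and 7.36 against 5.28 and 3.24. The 14 matrix proteases and inhibitors gave 5 higher and 3 lower (median 0.43), with Adam10 at 12.51 and 12.28 against 13.83 and 13.71.

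All 81 members had 5hmC counts over their gene bodies (exons and introns) and all passed the filter on low counts. Summed over the gene body, 1 member was called by edgeR's quasi-likelihood test, Col11a1, where 0.849% of 18488 genes were called. At an unadjusted p under 0.05 there were 3 members, or 3.70%, against 7.3% of all genes. The median log2 fold change of members was 0.01 beside -0.00 for all genes, and the 78 other members lay between -0.30 and 0.25. The median 5hmC density of members was above that of other genes. Over genes with at least 20 CCGG, counts scaled to a common library total (CPM) per CCGG strand position had a median of 0.371 in 79 members and 0.282 in 10159 other genes, and member medians in single libraries ran from 0.355 to 0.385. Lamc1 was the densest member at 0.865 and 0.930 in aOPC, against 1.02 and 0.881 in aOL, above 99.2% of genes with at least 20 CCGG. Itgb8 followed at 0.766 and 0.843 against 0.862 and 0.812, above 98.3%. The sparsest was Itga4 at 0.0824 and 0.0745 against 0.0704 and 0.0746, above 6.75%. None of these 3 was called between the populations (unadjusted p of 0.616, 0.776 and 0.734 for the gene bodies of Lamc1, Itgb8 and Itga4).

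**Figure D4:**
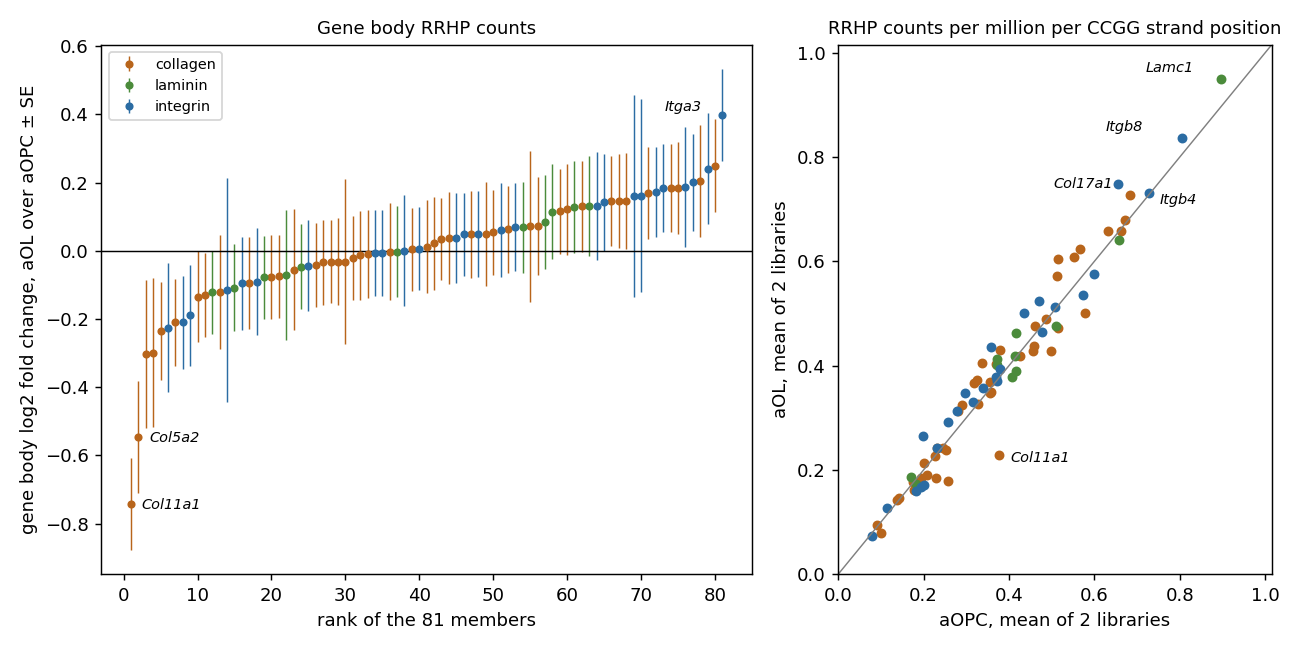
Left, log2 fold change of gene body RRHP counts (aOL over aOPC, bars are standard errors) for the 81 members ranked by value; right, 5hmC density (CPM per CCGG strand position, mean of 2 libraries) in aOPC against aOL for the 79 members with at least 20 CCGG, with the line of equality. Most members sit within 0.25 of 0 and along the line, Col11a1 lies at -0.74, and Lamc1 and Itgb8 have the highest densities.

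Col11a1, which encodes a chain of type XI fibrils and lies at chr3:114030479-114220756 (GRCm38), had gene body counts of 287 and 758 in aOPC, against 432 and 653 in aOL. In CPM these are 40.3 and 44.3 against 27.1 and 24.1, or 42.3 ± 2.78 against 25.6 ± 2.12 (SD, n = 2 libraries each). Both aOL libraries lay below both aOPC libraries, with a log2 fold change of -0.74 ± 0.14 (edgeR adjusted p = 0.0328). The call was kept without either aOPC library and lost without either aOL library. These fits assume that the lone library of a population varies like the pair of the other. Over all gene bodies the log2 difference between libraries had an SD of 0.648 in aOPC and 0.341 in aOL, so such calls are no check of the main one. The log2 fold changes were -0.82 and -0.65 without aOPC replicates 2 and 3, and -0.81 and -0.65 without aOL replicates 2 and 3. The gene was not listed in RNA. Col5a2, of type V fibrils, had 16.7 and 18.3 CPM in aOPC, against 12.5 and 11.9 in aOL (-0.55 ± 0.16, adjusted p = 0.297), and Itga3 had 22.8 and 25.0 against 32.1 and 31.7 (0.40 ± 0.14, adjusted p = 0.446). Neither was called, although their populations did not overlap.

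Of the 17 tested sites of Col11a1, 3 were called lower, and they lie close together in an intron and an exon, 35.8 to 35.9 kb from the start of the gene. At the intronic CCGG shown first above, the plus strand at position 114066317 had 23 and 81 reads in aOPC, against 0 and 0 in aOL. Its minus strand at 114066318 had 43 and 68 against 2 and 0, so both strands were at or under the floor of 3 counts in aOL. The exonic CCGG shown second had 61 and 179 against 4 and 6 reads on the minus strand at 114066420, a 40.2-fold lower CPM in aOL (adjusted p = 3.42e-06). On the strands at the floor, aOL was at least 26.6-fold and 33.5-fold lower (floor of 3 counts per library; adjusted p = 1.56e-05 and 3.79e-05). These are the only sites of the gene called lower. At 47.3 kb, the third sequence shown had the opposite values, 0 and 0 reads in aOPC, against 33 and 58 in aOL (adjusted p = 0.000459, at least 7.06-fold higher in aOL). The remaining 13 tested sites had log2 fold changes between -0.75 and 1.03, none of them called. Without the 3 lower sites, an alternative chosen after seeing the data that keeps the site called higher and so can only move the value up, the gene body counts were 160 and 430 in aOPC, against 426 and 647 in aOL, with a log2 fold change of 0.07 ± 0.15 (adjusted p = 0.913).

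**Figure D5:**
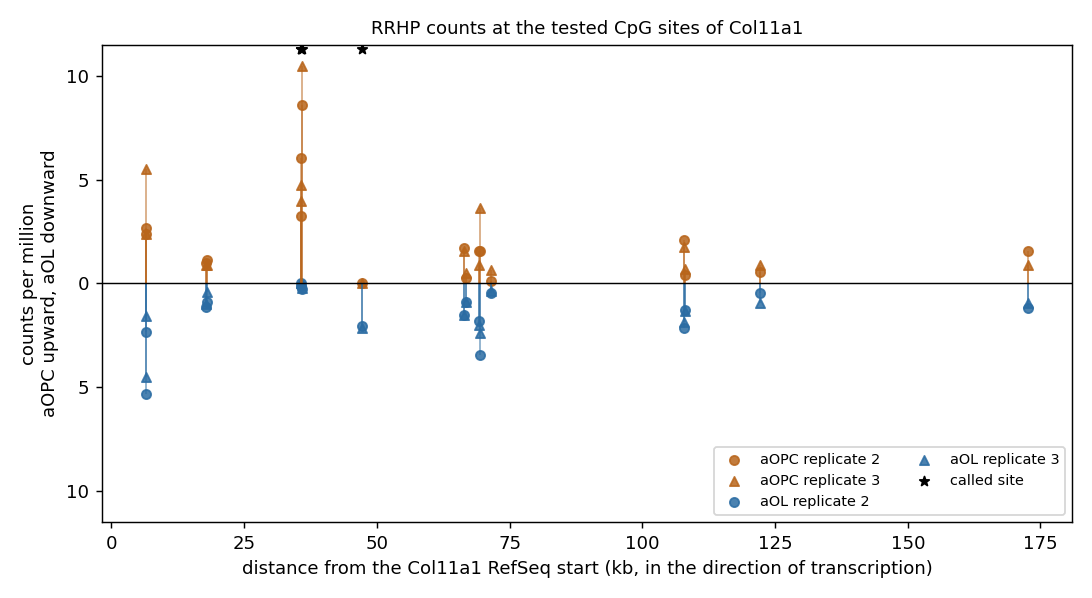
RRHP CPM at the 17 tested CpG sites of Col11a1 (vertical axis, aOPC upward and aOL downward, one marker per library) by distance from the RefSeq start of the gene (horizontal axis, kb); stars mark called sites, 3 of which overlap near 36 kb. The 3 sites near 36 kb carry 3.23 to 10.5 CPM in aOPC and at most 0.251 in aOL, the called site near 47 kb has reads in aOL only, and the other sites have reads in both populations.

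Single CpG sites were tested where 2 or more libraries had 10 reads or more. Of 6461 sites annotated to members 2568 qualified, and 25 were called higher in aOL (0.974%, against 1.21% of 443062 sites) and 9 lower (0.35%, against 1.08%). They fell in 18 of 81 members, where 14.3% of genes with a tested site held a call, but members had a median of 25 tested sites and all genes one of 7. None of the 34 lay in a promoter or CpG island, with 8 in exons and 26 in introns. In 24 of the 34, 1 population was at or under 3 counts in both libraries, as in 76.4% of all called sites, and in 21 of these 24 that population was aOPC, which has the shallowest library. Of the 25 higher sites, 24 were under 10 reads in both aOPC libraries and so were tested only through aOL, and 4 of the 9 lower sites were tested only through aOPC. Without aOPC replicate 3 the counts were 63 and 86 (2.71% and 3.70% of member sites tested), where 2.73% and 4.02% of all sites were called. Without either aOL library, the 24 higher sites tested only through aOL had 1 library that could reach 10 reads. They were then not tested, so their loss from the calls in these fits is set by the filter. A requirement of 10 reads in every library takes away all 25 higher sites by its construction. Of the 9 lower ones it keeps only those of Col6a6 and of Col11a2 at 34058564, and 1 was then called. Over all sites, 0.134% were called higher and 0.153% lower.

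Sites called with 1 population at or under 3 counts were unevenly spread over the genome. They made up 1.74% of tested sites over 532 bins of 5 Mb, with a median bin of 0.550% and 67 bins above 4%. Of the 34 called member sites, 15 (44.1%) lay in bins above 4%, as did 54.1% of all called sites; called sites themselves make up these rates. These 15 were all the called sites of Col11a1 (bin rate 4.24%), Col11a2 (4.75%), Col25a1 (4.35%) and Lama1 (4.52%). Without the member sites these rates were 3.45%, 4.71%, 4.42% and 4.48%, so the bin of Col11a1 passed 4% only with its own sites. The sites of Itgav (0.319%), Itgb7 (0.269%), Col5a1 (0.280%), Col22a1 (0.333%), Col27a1 (0.357%) and Lamc1 (0.393%) lay in bins below the median. Whether the reporter lines carry the same bases at such sites was not tested.

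Among called sites where each library of the higher population held 50 reads or more, there was 1 higher in aOL, in Col25a1, a transmembrane collagen of neurons. Its minus-strand site at chr3 position 130234220 had 0 and 0 reads in aOPC, against 78 and 118 in aOL (4.90 and 4.36 CPM, at least 15.5-fold higher, adjusted p = 3.17e-05). With 2 further intronic sites, Col25a1 had 3 of the 25 sites called higher, while its gene body was not called (log2 fold change 0.15, unadjusted p = 0.320). Of the 2 lower sites of this kind, 1 is the Col11a1 exon site above. The other was in Col6a6, a type VI chain, with 139 and 223 reads in aOPC, against 110 and 51 in aOL on the plus strand at chr9 position 105764617, or 19.5 and 13.0 CPM against 6.91 and 1.89 (3.70-fold lower, adjusted p = 0.0186). Its CCGG had reads in every library, unlike most others called.

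Col11a2, the partner chain of Col11a1 (chr17:34038919-34066684), held 6 called sites, 4 higher and 2 lower. At the exonic CCGG shown above, the plus strand at 34058564 had 14 and 37 reads in aOPC, against 10 and 14 in aOL (3.61-fold lower, adjusted p = 0.0313). The minus strand of the same CCGG, at 34058565, had no reads in aOPC and 12 and 25 in aOL (adjusted p = 0.0126, at least 2.81-fold higher). The 2 strands of 1 palindrome were thus called in opposite directions. At a CCGG further into the gene, the minus strand at 34058932 had 28 and 48 reads against 9 and 17 (5.65-fold lower, adjusted p = 0.00269), while its plus strand had 3 and 6 against 23 and 55 without a call (adjusted p = 0.0577). The gene body sum of Col11a2 had a log2 fold change of 0.00 (unadjusted p = 0.968).

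Lama1, a laminin alpha chain of embryonic basement membranes, had a site in each direction in one intronic stretch. The site at 67786427, shown above, had 20 and 39 reads in aOPC, against 0 and 0 in aOL (at least 17.0-fold lower, adjusted p = 9.02e-05). The one at 67788145 had no reads in aOPC and 17 and 39 in aOL (adjusted p = 0.00336, at least 4.20-fold higher), while the opposite strand of that CCGG had reads in all libraries (19 and 27 against 17 and 25, adjusted p = 0.388). In Lamc1, 2 intronic sites in one 2 kb window were both called higher, with 2 and 10 reads in aOPC, against 34 and 55 in aOL at 153253197, and 0 and 3 against 33 and 33 at 153253587. Col5a2 had 2 intronic sites called lower, with 12 and 38 against 3 and 14 reads and 12 and 33 against 3 and 12.

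Single called sites, all higher in aOL and all intronic, were found in Itgav (0 and 0 reads in aOPC, 19 and 22 in aOL), Itga6 (0 and 2, against 21 and 19), Itga9 (0 and 0, against 17 and 15) and Itgb7 (0 and 0, against 14 and 21). Col5a1, Col12a1, Col22a1 and Col27a1 also had 1 such site each, and Col9a2 had 1 in an exon, with 14 to 37 reads in each aOL library over the 5 sites. Col19a1 and Col6a4 had 2 higher sites each, and Col6a6 had 1 beside its lower one. Differentially hydroxymethylated regions were counted as fixed 2 kb windows that held 2 or more called sites of the same direction. Members held 3 such windows of 707 with at least 2 tested sites (0.424%), against 0.854% of all windows. They were those of Col11a1 (3 sites, lower in aOL), Col11a2 (2 sites, higher) and Lamc1 (2 sites, higher).

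Promoter counts were summed for 69 members, of which 61 passed the filter on low counts. None was called by edgeR or DESeq2, where edgeR called 0.768% of 14579 promoters. At an unadjusted p under 0.05 there were 2 members (3.28%, against 5.97% of promoters), and the median log2 fold change was 0.08 beside -0.01 for all. They were Col11a1 and the basement membrane chain Col4a5. Col11a1 had 27 and 20 reads in aOPC, against 14 and 14 in aOL (-1.17 ± 0.50, edgeR adjusted p = 0.661). Without aOL replicate 3 its value was -0.60. Col4a5 had 6 and 5 reads in aOPC, against 12 and 28 in aOL (1.32 ± 0.59, edgeR adjusted p = 0.726). In CPM the populations overlapped for Col4a5, with 0.84 and 0.29 in aOPC, against 0.75 and 1.03 in aOL. Member sites in promoters that are CpG islands had 0.281 CPM per listed site in aOPC replicate 2, against 0.0921, 0.0851 and 0.127 in aOPC replicate 3 and aOL replicates 2 and 3. In introns outside promoters the libraries, in the order aOPC 2, aOPC 3, aOL 2 and aOL 3, had 0.846, 0.921, 0.950 and 0.897 CPM per site, where aOPC replicate 2 was the lowest. Member sites in promoters outside islands had 0.624, 0.494, 0.487 and 0.486, so aOPC replicate 2 was the highest in promoters of both kinds. Only 1 gene is named per site, and the sites of the promoter shared by Col4a1 and Col4a2 are given to Col4a2, so Col4a1 had no promoter count.

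Promoter windows of 300 bases (250 before the RefSeq start and 50 after it, GRCm38) were found for 58 members. A CCGG occurred in 40 of them (69.0%) and in 52.6% of the 27025 windows of all genes; the motif is a palindrome, so both strands are searched at once. A pair of examples shows what promoter counts rest on, an integrin with many CCGG and few reads and a collagen with few CCGG and many reads. In the Itgav window 7 CCGG gave 20 and 9 reads in aOPC, against 2 and 26 in aOL in all. In the Col9a2 window 3 CCGG gave 46 and 172 reads against 167 and 204.
Itgav, chr2:83724147-83724446: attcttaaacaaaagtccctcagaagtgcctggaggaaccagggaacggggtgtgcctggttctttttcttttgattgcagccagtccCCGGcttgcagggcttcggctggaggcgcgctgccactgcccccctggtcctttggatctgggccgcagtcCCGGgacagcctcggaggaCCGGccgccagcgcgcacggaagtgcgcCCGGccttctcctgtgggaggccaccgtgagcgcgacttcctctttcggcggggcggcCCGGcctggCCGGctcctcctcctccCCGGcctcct
Col9a2, chr4:121039316-121039615: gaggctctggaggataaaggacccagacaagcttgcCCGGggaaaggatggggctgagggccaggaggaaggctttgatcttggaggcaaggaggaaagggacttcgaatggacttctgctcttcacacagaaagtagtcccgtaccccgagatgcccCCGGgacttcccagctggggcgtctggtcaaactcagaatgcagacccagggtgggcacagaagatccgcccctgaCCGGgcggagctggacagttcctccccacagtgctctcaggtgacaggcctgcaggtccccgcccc

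Set beside each other, the RNA and gene body values of members were far apart in size. The 18 members with an unadjusted RNA p under 0.05 had gene body log2 fold changes between -0.30 (Col3a1) and 0.20 (Itgb3), where their RNA differences ran from -4.98 to 4.58, and no gene body among them had an unadjusted p under 0.05. For 16 of the 18 the gene body value had the sign of the RNA difference, the exceptions being Itga4 and Itgb7, and the same held for 61.1% of the 2474 genes of any kind at that RNA threshold. Over all 40 tested members the signs were the same for 26 (65.0%), against 55.3% of 10388 genes. The Spearman correlation across genes was 0.398 over the 40 members, and over the 10388 genes it was 0.139. These are descriptions across genes, which are not independent, and RNA and DNA came from the same pellets. Of the 10 members of the fixed set that RNA did not list, Col11a1 was called in the gene body, and Col5a1, Col15a1, Lama1, Lama5, Lamb1, Lamc3, Itga1, Itga6 and Itga9 had gene body log2 fold changes between -0.21 (Itga1) and 0.18 (Col5a1) with no unadjusted p under 0.05.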

How the data were processed

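RNA-seq and RRHP were analysed for 2 libraries each of aOPC and aOL; groups and replicate numbers came from the sample titles. For RNA, the authors used BWA for alignment to mm10 and featureCounts for exon reads, as the study's methods state; DESeq2 1.2.5 is listed in the submitters' processing notes. The deposited RNA values are log2 values with nearly equal quantiles between libraries, without read counts, so depth per gene is unknown, and how genes were chosen is not given in the sources used here. Quantile-matched values cannot show a shift shared by most genes. For RRHP, the deposited tables give unscaled counts of reads for each CpG site and strand on mm10, with the authors' promoter, exon, intron and CpG island columns; the aligner is not given in the sources used here. Of the sites in the promoter column, 91.7% lay within 1000 bases of a RefSeq start. Positions are 1-based, and 100% of 1494474 sites on assembled chromosomes lay at a CCGG of GRCm38.

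Members and gene lists were chosen with earlier results of these data known. Named genes were those called, or with a called site, those with an unadjusted limma p under 0.05 and a fixed set of members; from other lists, up to 3 per direction with the smallest p (markers named in the checks of labels and cell types, and the sites shown beside those named by rule, were picked after their values were seen). RNA was tested with limma 3.58.1 (genes with log2 of at least 5 in 2 libraries; the design was written for log2 values), counts with edgeR 4.0.16 (quasi-likelihood, TMM, library totals of 7113237 and 17121440 for aOPC, then 15923775 and 27057859 for aOL). A call needed an adjusted p under 0.05, and in RNA also p under 0.01. The floor of 3 counts is 0.422, 0.175, 0.188 and 0.111 CPM in these libraries and covers counting error only. Alternatives were other scaling, DESeq2 1.42.0, filters, a replicate block and leaving out each library. Scripts were tested on simulated data. Sequences are from RefSeq and GRCm38. R 4.3.3, Python 3.11.15, pandas 2.3.3 and matplotlib 3.10.9 were used.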

Additional observations from a re-analysis of the deposited data

How the results depend on the processing

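No paired design was established: same-numbered libraries of the populations come from different reporter lines, and the correlation of their deviations was -0.07 in RNA, -0.41 in gene bodies, -0.41 in promoters and -0.04 at CpG sites. With a replicate block, limma called 4 members in RNA (Col1a2, Col6a1, Col8a1 and Col8a2, all lower in aOL), against 0 without it, with 1.14% of all genes called, and edgeR called 36 member sites higher, 17 lower and 5 windows, against 25, 9 and 3, with 1.69% and 1.25% of all sites called higher and lower. The crossed pairing, chosen after seeing the data, called 1 gene body and 0 promoters, where it called 3.88% of all gene bodies and 2.31% of all promoters. Leaving out each library in turn gave 5 to 16 members called in RNA, 11 to 24 at an unadjusted p under 0.05, medians from -0.04 to 0.61, 0 to 9 gene bodies, 0 to 4 promoters, 0 to 63 sites higher, 6 to 86 sites lower and 1 to 11 windows, the upper ends for RRHP all without aOPC replicate 3. In the fits with the most calls, without aOPC replicate 2 for RNA and without aOPC replicate 3 for RRHP, 36.3% of all genes in RNA, 22.6% of gene bodies, 11% of promoters, and 2.73% and 4.02% of sites (higher and lower) were called. Requiring at least 10 reads in every library gave 0 sites higher, 1 lower and 0 windows (0.134% higher and 0.153% lower over all sites). None of the 25 higher sites meets it. Of the 9 lower ones only those of Col6a6 and of Col11a2 at 34058564 do. Without either aOL library, 24 of the 25 higher sites also fall below the filter of 10 reads in 2 libraries. Asking for at least 3 called sites left 1 window. Gene body sums restricted to sites where each library reached 3 reads left 0 member gene bodies called and 0.0605% of all (Col11a1 at -0.50, adjusted p = 0.457). Without its 3 lower sites the Col11a1 fold change was 0.067 with an SE of 0.15, near 0; this choice can only move the value up. Without 1 library, the RNA difference changed sign for 11 of 40 members, none with an unadjusted p under 0.05, among them Col16a1 (-1.74 to 2.34), Col27a1 (-1.40 to 0.86), Col4a1 (-0.34 to 0.076), Col9a3 (-1.11 to 0.72), Itga3 (-0.89 to 0.19) and Itgb2 (-1.11 to 0.23); Col9a3 was called in opposite directions without aOPC replicate 2 and without aOPC replicate 3. DESeq2 size factors kept the counts of gene bodies, promoters, sites and windows within 1.5 times, the DESeq2 test those of gene bodies and promoters, and no filter those of RNA, gene bodies and promoters. Raising RNA values under 5 to 5 kept the RNA counts at 0 and 18, with Itga7 at 2.08, Col17a1 at 2.01, Col8a1 at -1.83 and Itgb7 at -0.88. The cause of these changes was not tested. With 2 libraries per population the spread rests on few values, promoter counts of members were low, and the RNA values carry no depth.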
